A study of Mus musculus with 12 samples.

Results

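Pomc, Tbx19, Neurod1, Pitx1, Pax7 and Mc2r, 6 genes of the corticotropin and melanocortin system of the pituitary, were followed in pituitaries of Crhr1 wild-type and knockout mice. All probes that the array's probe-gene table assigns to these symbols were taken, whatever their intensity. They were 6 of 17658 gene symbols and 7 of 46147 probes, 2 for Pomc and 1 for each of the other genes. The genes were picked for their roles, with earlier results of these data known.

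Expression was read on Illumina mouse bead arrays from pooled pituitary RNA after a single round of linear amplification and Cy3 coupling. The Crhr1-wt group carried the intact gene for the corticotropin-releasing hormone receptor 1, and the Crhr1-ko group lacked it. Each genotype had an unstressed control, a group killed 1 h and a group killed 3 h after the beginning of a 30 min restraint, with 2 arrays for each of the 6 groups and 12 arrays in all. Every animal, the controls among them, had received metyrapone by intraperitoneal injection, 150 mg/kg given 12 h ahead of the stress and 100 mg/kg just ahead of it. Metyrapone blocks the last step of corticosterone synthesis, so none of the 6 groups is free of the drug. A basal blood sample was taken between the second injection and the stress, per the labels' protocol, and the controls were killed 1 to 3 h after injection.

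The strain, sex, age, number of mice per pool and the deleted part of Crhr1 are not given in the labels. The titles call the 2 arrays of a group technical replicates, so the errors below, SD for levels and SE for differences, measure the spread between arrays of a pool and not between mice. For the knockout control and knockout 3 h groups the titles and descriptions were followed, although another label field states 1 h for them. All arrays numbered 1 lay on 1 slide and all numbered 2 on another, in the same group order, so that the array's position on the slide and the group cannot be told apart.

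POMC is the precursor that corticotropes of the anterior lobe cleave into ACTH and melanotropes of the intermediate lobe cleave into alpha-MSH and beta-endorphin. Corticotropin-releasing hormone acts through CRHR1 on corticotropes to raise ACTH release and Pomc transcription, and glucocorticoids restrain both. The T-box factor encoded by Tbx19 drives the final differentiation of both cell types, Pitx1 encodes a homeobox factor present across the anterior lineages, Neurod1 encodes a helix-loop-helix factor of developing corticotropes, and Pax7 encodes the factor that selects the melanotrope fate. Mc2r encodes the ACTH receptor of the adrenal cortex and is not a gene of corticotrope or melanotrope identity.

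Between 6119 and 13506 probes per array were detected, meaning a detection p-value under 0.01, and raw array medians lay between 97.1 and 255. The lowest number detected belonged to the second knockout 3 h array. The 2 arrays of that group correlated at 0.920 across tested probes, against 0.964 to 0.979 in the other 5 groups. Gh and Prl, the hormones of somatotropes and lactotropes, were bright on all 12 arrays, with Gh above 60000 on each of them. Crhr1 itself could not check the genotype labels. Its brightest probe was detected on 1 wild-type and 1 knockout array, with raw intensities between 102 and 320, and where it lies relative to the deletion is not known.

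The main Pomc probe, 6450408, was detected on every array, and its lowest raw intensity on each slide was in the knockout control. The wild-type control arrays read 51204 and 59033, the wild-type 1 h arrays 41776 and 52831, and the wild-type 3 h arrays 39564 and 51642, each pair given as slide 1 and slide 2. The knockout control arrays read 36368 and 44040, the knockout 1 h arrays 42542 and 65160, and the knockout 3 h arrays 44765 and 55768. The second slide was brighter in each group, and the highest Pomc reading was the wild-type control on slide 1 and the knockout 1 h group on slide 2.

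**Figure D1:**
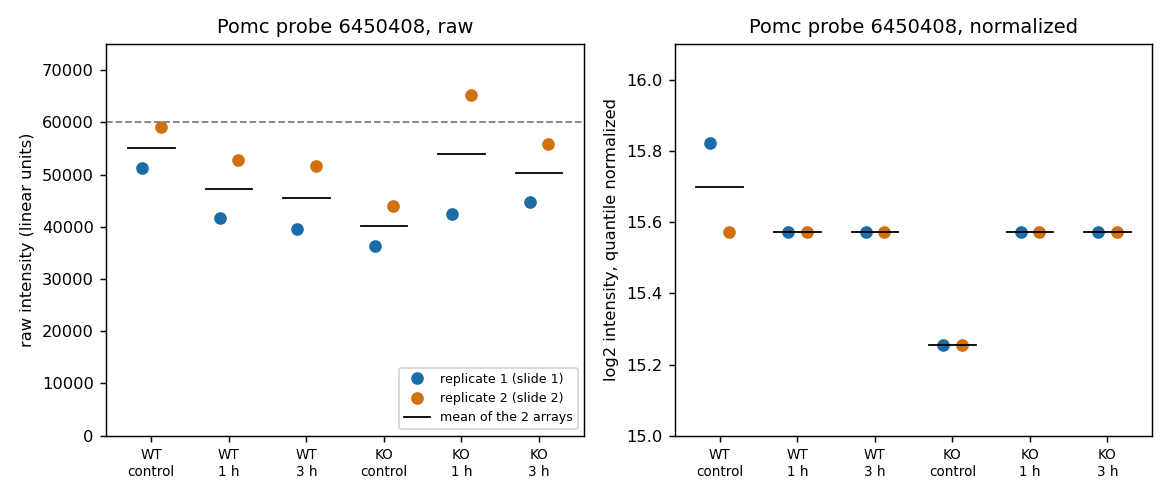
Raw intensity (left, linear units from 0) and quantile-normalized log2 intensity (right) of the main Pomc probe in the 6 groups. Points are single arrays, coloured by slide, bars are the mean of the 2 arrays, and the dashed line marks 60000. A single knockout 1 h array lies above the line, the knockout control is lowest on both slides, and the normalized values take only 3 levels.

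The probe lay close to the top of the scanner's range. It exceeded 60000 on 1 array, the second knockout 1 h array, and 50000 on 6 of 12 arrays, while the brightest probe on any array read 69592. Bead error was small, 1.41% to 4.57% of the mean over 42 to 63 beads. Whether readings at this brightness are compressed was not tested.

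Between the controls, the knockout read 0.71 times the wild type on slide 1 and 0.746 times on slide 2. The median raw intensity of the whole array had ratios of 0.932 and 0.684 between the same arrays, so the Pomc ratio was below that of the array on slide 1 and above it on slide 2. In the stressed groups the ratio of knockout to wild type was 1.02 and 1.23 at 1 h and 1.13 and 1.08 at 3 h.

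Normalized Pomc values carry rank only. Quantile normalization gives a probe the value of its rank, and Pomc ranked 2 to 5 on the 12 arrays. It had the same log2 value, 15.57, on both arrays of 4 groups, a mean of 15.70 ± 0.18 (SD, n = 2) in the wild-type control, and 15.25 in the knockout control, where it ranked 5 on both arrays. The knockout control was thus lower than the wild-type control by 0.44 ± 0.15 on the log2 scale (95% interval of the difference -0.78 to -0.11). This did not pass the test (limma adjusted p = 0.167). The SE and interval draw, through limma, on the spread of all tested probes and do not measure that of Pomc alone. The probe's own replicate arrays had a pooled SD of 0.07. A probe was called when its Benjamini-Hochberg adjusted p-value was under 0.05 and its difference at least 1.5-fold, which held for 1.67% of the 14405 probes tested in this comparison and for 0 of the 5 tested probes of the 6 genes. An unadjusted limma p under 0.05 was reached by 3 of these 5 probes and by 2557 of the 14405 tested. The 3 include the main Pomc probe, whose values carry rank only. They also include the dim second Pomc probe described below, which passed the detection filter only through knockout arrays. The count is therefore a description.

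With arrays centred on their median in place of quantile normalization, the difference between the control groups was -0.23 ± 0.32, with -0.45 on slide 1 and -0.01 on slide 2 (limma adjusted p = 0.839). Restraint gave no called change of Pomc in either genotype. The quantile-normalized differences from control were -0.13 ± 0.15 at 1 h and at 3 h in the wild type. In the knockout they were 0.32 ± 0.15 at each time (limma adjusted p = 0.447 at 1 h and 0.201 at 3 h), and the 3 h value was -0.21 ± 0.32 with median centring. That scaling moved the median of all probes in the comparison from -0.11 to -0.24, and its Pomc value was 0.17 on slide 1 and -0.58 on slide 2, so its sign rests on the second slide. The background of calls was 0.0625% for wild type at 1 h, 0.167% for wild type at 3 h and 0.201% for knockout at 1 h. Since whole pituitaries were measured, fewer Pomc cells and less Pomc RNA per cell cannot be told apart in any of these values.

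The Pomc promoter is shown because it is the stretch next to the start site on which factors that control Pomc transcription act. The 250 bases before the start, chr12:3954695-3954944 of GRCm38.p6 on the plus strand, are from RefSeq, with the TATA box in capitals.
Pomc promoter: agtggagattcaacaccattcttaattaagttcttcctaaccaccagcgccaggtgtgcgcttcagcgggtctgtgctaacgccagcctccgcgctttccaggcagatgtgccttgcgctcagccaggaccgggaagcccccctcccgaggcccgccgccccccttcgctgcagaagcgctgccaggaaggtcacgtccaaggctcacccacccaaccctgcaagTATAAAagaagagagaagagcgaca
The stretch is 60% G and C, and its TATAAA begins 25 bases before the start. On the strand of the gene, TATAAA occurs in 7.59% of 32841 mouse promoters of the same length. The E-box CANNTG, the kind of site that helix-loop-helix factors such as the Neurod1 product bind, occurs 2 times on either strand here and at least once in 66.2% of promoters. The Tbx19 and Neurod1 promoters hold 1 E-box each and the Pax7 promoter none. The letters TAATCC, the core bound by Pitx factors, and TCACACC, a T-box core, are not in this window, against 6.25% and 3.33% of promoters that hold them. These are matches of letters and were not tested for binding, and the windows are too short to stand for a whole promoter.

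The second Pomc probe, 102230463, gave a dim signal that was detected on 3 of 12 arrays, all 3 of them knockout arrays of slide 1. It was annotated to Pomc through a cDNA other than the reference transcript, and which part of the locus it reads was not determined here. Raw intensities were 87 and 175 in the wild-type control, 129 and 176 at 1 h, and 139 and 193 at 3 h. In the knockout they were 140 and 157 in the control, 155 and 267 at 1 h, and 183 and 262 at 3 h. No wild-type array passed the detection limit.

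Averaged over the 2 arrays of each pool, the log2 level of this probe was 4.90 to 5.55 in the 3 wild-type pools and 5.95 to 6.16 in the 3 knockout pools, without overlap. Of all 14405 tested probes, 15.4% had pools without overlap, and 5.07% had them with the knockout higher. The probe passed the detection filter only through knockout arrays and all wild-type values are below detection, so these levels are a description, and no test of their difference is drawn on. The mean gap between knockout and wild-type pools was 1.13 on slide 1 and 0.36 on slide 2. The 2 Pomc probes did not show the same ordering of groups. The main probe was lowest in the knockout control, and the second was lowest, after normalization, in the wild-type control on both slides.

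Tbx19 was detected on all 12 arrays and was the one gene of the 6 with a called change. Its raw intensities were 351 and 545 in the wild-type control, 294 and 399 at 1 h, and 375 and 582 at 3 h. In the knockout they were 224 and 254 in the control, 258 and 506 at 1 h, and 354 and 729 at 3 h. On each slide the knockout control was the lowest of the 6 groups, both in raw and in normalized intensity.

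The log2 levels of Tbx19 were 8.20 ± 0.11 (SD, n = 2) in the wild-type control, 7.88 ± 0.15 at 1 h and 8.25 ± 0.20 at 3 h. The knockout had 7.52 ± 0.25 in the control, 7.80 ± 0.03 at 1 h and 8.50 ± 0.44 at 3 h. From lowest to highest the order was knockout control, knockout 1 h, wild-type 1 h, wild-type control, wild-type 3 h and knockout 3 h. The 5 differences between neighbours in this order, the widest 0.33 ± 0.23, were each tested and none was called.

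**Figure D2:**
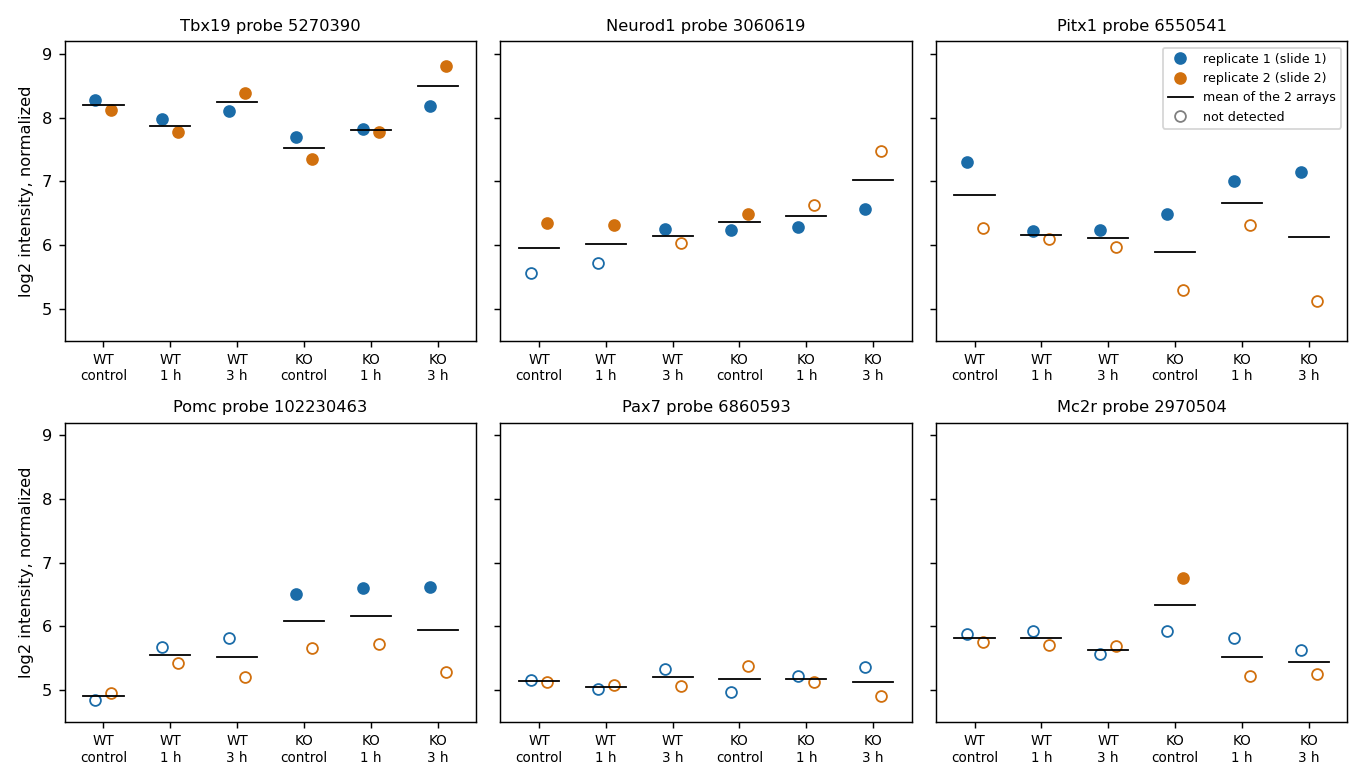
Normalized log2 intensity of the other 6 probes in the 6 groups, on 1 common axis. Points are single arrays, coloured by slide and hollow where the probe was not detected, and bars are the mean of the 2 arrays. Tbx19 is filled on all 12 arrays with its lowest values in the knockout control, whereas Pax7 is hollow on all 12.

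Tbx19 rose by 0.98 ± 0.23 on the log2 scale at 3 h in the knockout (95% interval 0.45 to 1.51, limma adjusted p = 0.0374), with 0.49 on slide 1 and 1.46 on slide 2. This comparison called 8.68% of all probes, so that 1 call among 5 tested probes is read for Tbx19 alone and not for the 6 genes as a set. The call was lost with median centring (0.75, adjusted p = 0.165) and in 11 of the 12 fits that left out 1 array, where the difference lay between 0.67 without the second knockout 3 h array and 1.28 without the first. The second knockout 3 h array is the one with the fewest detected probes, and its part in the result beyond these values was not tested.

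In the wild type, Tbx19 differed from control by -0.33 ± 0.23 at 1 h (limma adjusted p = 1.00) and by 0.05 ± 0.23 at 3 h (limma adjusted p = 0.964). The difference between the genotypes in the 3 h response was 0.93 ± 0.33 (95% interval 0.18 to 1.68), which did not pass (limma adjusted p = 0.218), in a comparison where 0.139% of probes were called. In the controls the knockout was lower by 0.68 ± 0.23 (95% interval -1.21 to -0.15), with -0.58 on slide 1 and -0.78 on slide 2, and this did not pass either (limma adjusted p = 0.176). At 1 h and 3 h the knockout differed from the wild type by -0.07 ± 0.23 and 0.25 ± 0.23, where 0.812% and 1.38% of probes were called. Over the 3 pools of each genotype the difference was -0.17 ± 0.22 (limma adjusted p = 0.852). The 3 h difference between genotypes for Tbx19 was of opposite sign, -0.31, with median centring, a scaling that moved the median of all probes in that comparison from -0.11 to -0.51.

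**Figure D3:**
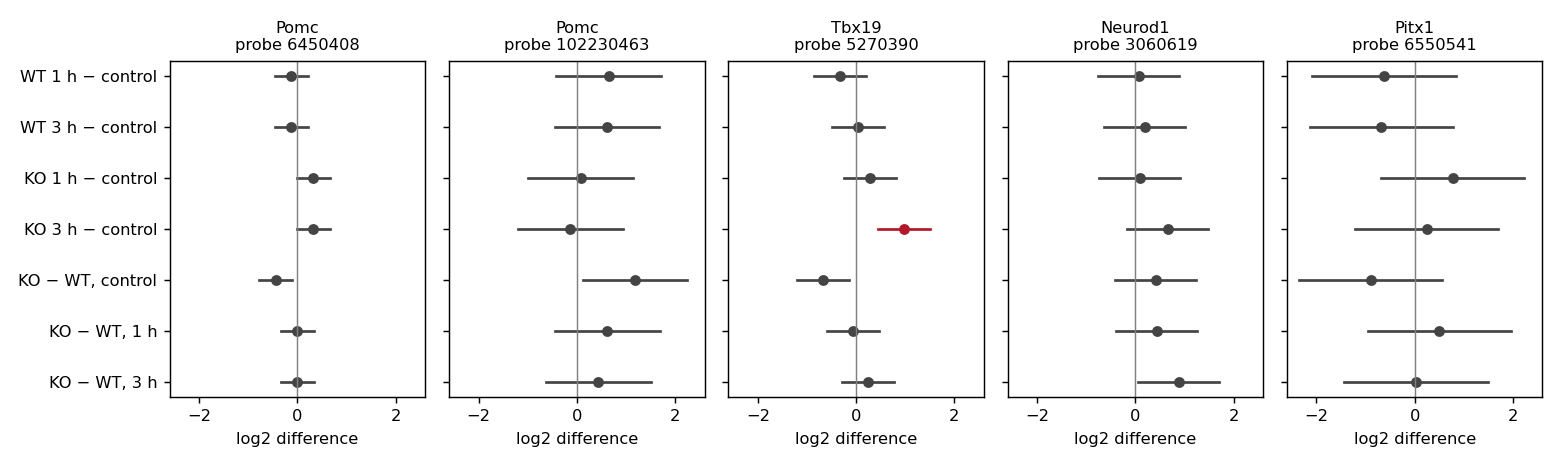
Log2 differences of the 5 tested probes in 7 comparisons, stressed minus control within each genotype and knockout minus wild type at each time. Points are limma estimates, lines are 95% intervals, and red marks a call. The wild-type values of the second Pomc probe are below detection, so its points are not exact differences. Tbx19 at 3 h in the knockout is the single red point, at 0.98.

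Neurod1 was detected on 7 of 12 arrays, 3 wild-type and 4 knockout. Raw intensities were 116 and 277 in the wild-type control, 130 and 228 at 1 h, 164 and 243 at 3 h, 129 and 192 in the knockout control, 140 and 336 at 1 h, and 179 and 461 at 3 h. Its highest reading on each slide was in the knockout 3 h group. The mean log2 levels were 5.95, 6.02 and 6.15 in the wild-type control, 1 h and 3 h groups and 6.36, 6.45 and 7.02 in the same knockout groups.

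The 3 knockout pools of Neurod1 lay above the 3 wild-type pools, with a difference of 0.57 ± 0.19 (limma adjusted p = 0.326). An exact two-sided permutation test of 3 against 3 pools gave p = 0.1, the smallest value that this test can give. The test shuffled the pools freely and did not keep pools of the same treatment paired, so no conclusion is drawn from it. The fit over pools called 0.0833% of the 14405 probes. Pools without overlap made up 15.4% of them, and 5.07% with the knockout higher. The difference was 0.51 on slide 1 and 0.63 on slide 2. At 3 h alone the knockout was higher by 0.88 ± 0.36 (limma adjusted p = 0.260). Without the second knockout 3 h array that difference was 0.42 (limma adjusted p = 0.750), and without the first it was 1.34 and was called. The latter value rests on the second array alone for the knockout, where Neurod1 read 461 and was not detected.

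Pitx1 was detected on the 6 arrays of slide 1 and on none of slide 2. Raw intensities were 215 and 271 in the wild-type control, 149 and 214 at 1 h, 163 and 239 at 3 h, 140 and 140 in the knockout control, 181 and 310 at 1 h, and 223 and 240 at 3 h. Replicate arrays differed with a pooled SD of 0.78 on the log2 scale, so only large differences could have been seen in the main fit. Part of this spread is an offset between the slides, since the slide 1 array had the higher normalized value in each group. Between the controls knockout minus wild type was -0.90 ± 0.65 (limma adjusted p = 0.525), and the widest difference was that between the genotypes' 1 h responses, 1.40 ± 0.91 (limma adjusted p = 0.680). With the slide as a block the SE of these differences was 0.41 and 0.58 (limma adjusted p = 0.268 and 0.404), and neither was called. Over pools the difference was -0.12 ± 0.27, with 0.29 on slide 1 and -0.54 on slide 2, opposite signs.

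Pax7 was not detected on any array. Its raw intensity lay between 87.2 and 218, with detection p-values from 0.121 to 0.655, and it was left out of the tests. Mc2r read between 119 and 260 and was detected on 1 array, the second knockout control array with a reading of 207. Fitted without the detection filter, Mc2r differed from control by -0.83 ± 0.29 at 1 h and by -0.90 ± 0.29 at 3 h in the knockout (limma adjusted p = 0.580 and 0.188), differences between values that are nearly all below the detection limit. Among other adrenal cortex genes, Star was detected on 6 arrays and Cyp11a1 on 5, with no call, and Cyp11b1 and Cyp21a1 on none.

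Taken over all 5 tested probes, the median difference was -0.44 between the controls, against 0.00 for all probes, and 0.32 at 3 h in the knockout, against -0.11. In the knockout at 1 h all 5 differences were above 0, with a median of 0.28 against -0.03, and none was called. The wild-type medians were -0.13 at 1 h and 0.05 at 3 h. The genotype difference of the 1 h response, where 0.0555% of all probes were called, had a median of 0.44 over the 5 probes. The second Pomc probe is among the 5 and entered through knockout arrays alone, so these medians are descriptions. Both knockout responses share the knockout control with the comparison of the controls, so these values are not independent of each other.

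Whether the 2 arrays of a group overlapped those of the other group was counted for the same 5 probes. They include the second Pomc probe, which entered through knockout arrays alone, and the main Pomc probe, whose normalized values carry rank only. In the knockout at 1 h the main Pomc probe was separate from control by rank, although its raw readings overlapped. The counts are therefore descriptions. The arrays of the 2 groups compared are meant in what follows. Arrays did not overlap for 3 probes in the wild type at 1 h and 2 at 3 h, against 39.4% and 47.0% of all probes. In the knockout the counts were 2 at 1 h and 3 at 3 h, against 50.1% and 51.8%. For knockout against wild type they were 3 in the controls, 2 at 1 h and 1 at 3 h, against 54.3%, 51.6% and 41.6%. With 2 arrays a group such separation was thus common on the whole array.

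Genes of prohormone processing and of the secretory granule, which cleave, package and store POMC products but also serve other endocrine cells, had 8 of 10 listed genes tested. The convertase genes Pcsk1 and Pcsk2 were not tested, since Pcsk1 was detected on 0 arrays and Pcsk2 had 0 probes under its symbol. At 3 h in the knockout all 8 had a difference above 0, with a median of 0.50 against -0.11 for all probes. For Pam, 1 of them, the slides went opposite ways, from 5.41 in the control to 6.62 on slide 1 and from 5.62 to 5.04 on slide 2. Of these Pam readings only the 6.62 was detected. Scg3, also of the 8, was not detected on the second knockout 3 h array. On slide 2 the raw array median of the 3 h array was 1.86 times that of the control. How the 8 differences stand with median centring, which turned the sign of Pomc here, was not tested. Of the 8, 1 was called, in a comparison that called 8.68% of all probes. Scg5, which encodes the chaperone of prohormone convertase 2, rose by 1.03 ± 0.15 (limma adjusted p = 0.0103). Its log2 levels were 12.81 and 12.92 in the knockout control, 13.93 and 13.87 at 3 h in the knockout, and 13.76 and 13.63 in the wild-type control.

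Scg5 was also lower in the knockout control than in the wild-type control, by 0.83 ± 0.15 (limma adjusted p = 0.0343), the 1 call in that list. The other bright granule genes gave 0.58 ± 0.18 for Cpe, encoding carboxypeptidase E, 0.31 ± 0.16 for Chgb and 0.30 ± 0.17 for Scg2 at 3 h in the knockout (limma adjusted p = 0.0760, 0.239 and 0.270). The summed linear level of the 8 genes was 35433 to 36260 in the knockout control and 51653 to 53969 in the knockout 3 h group, with 39489 to 48076 in the other groups.

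**Figure D4:**
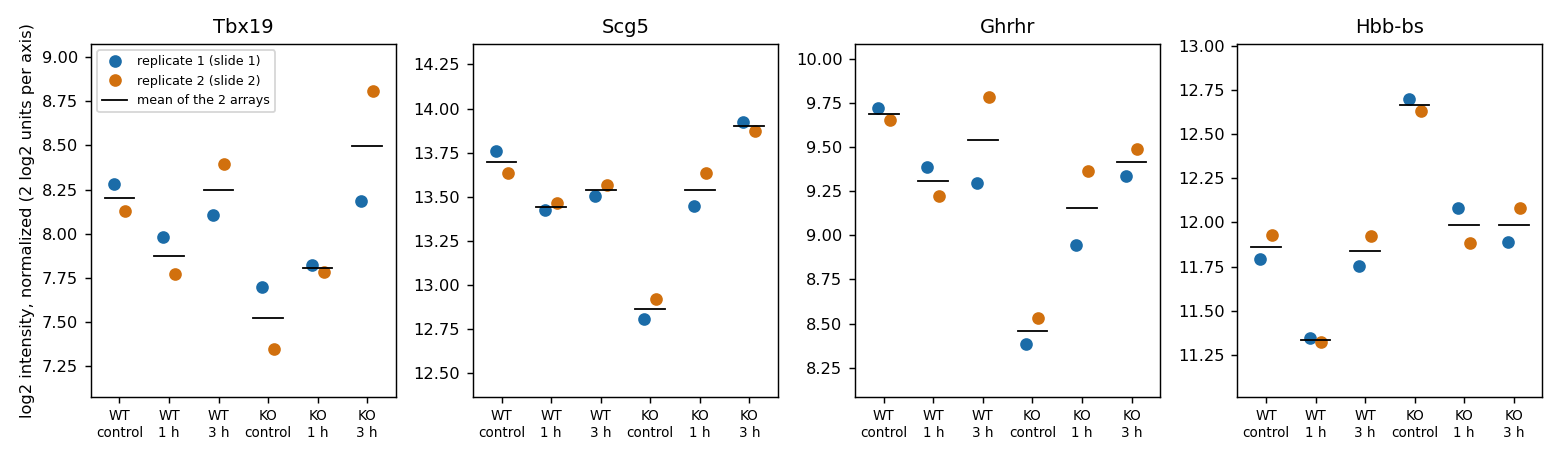
Normalized log2 intensity of Tbx19, Scg5, Ghrhr and Hbb-bs by group, each panel spanning 2 log2 units. Points are single arrays, coloured by slide, and bars are the mean of the 2 arrays. The first 3 genes are lowest and Hbb-bs is highest in the knockout control on both slides.

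The knockout control was also lowest in a gene of another lineage and was highest in a red cell gene. The other groups did not keep the order of Tbx19. Ghrhr was highest in a wild-type group on each slide, and Hbb-bs was lowest in the wild type at 1 h on both. Hbb-bs was read through the brightest of its tested probes, with 9 on the array, and Ghrhr through the brighter of its 2 probes. Ghrhr belongs to a list of other anterior lobe lineages with 8 tested genes. Between the controls 6 of these 8 were higher and 2 lower in the knockout, with a median difference of 0.08. Ghrhr, the receptor by which somatotropes respond to growth-hormone-releasing hormone, was lower in the knockout control by 1.23 ± 0.21 (limma adjusted p = 0.0329) and rose by 0.96 ± 0.21 at 3 h in the knockout (limma adjusted p = 0.0306). Hbb-bs, a beta globin gene with a near-identical copy that its probe may share, was higher in the knockout control by 0.80 ± 0.16 (limma adjusted p = 0.0472) and fell by 0.68 ± 0.16 at 3 h (limma adjusted p = 0.0354). The summed level of the 4 red cell genes was 10408 to 10922 in the knockout control and 4385 to 8289 in the other groups, and 4 of 4 were above the wild type in the controls, with a median difference of 0.46. One of the 4, Hbb-bs, was called, where 1.67% of all probes were. At 1 h and 3 h the 4 genes were also above the wild type, with medians of 0.61 and 0.51 and no call. The part of blood content or of the cell mix in the low Tbx19 and Pomc readings of the knockout control was not tested.

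Of 12 other genes whose products act on the Pomc promoter, 8 were tested, with a median of -0.58 at 3 h in the knockout against -0.11 for all probes. Of the 8, 2 were called lower, where 8.68% of all probes were called in either direction. Nr4a2, an orphan nuclear receptor of the immediate early response, fell by 1.64 ± 0.34 (limma adjusted p = 0.0253), and Tcf12, a helix-loop-helix partner, fell by 1.13 ± 0.30 (limma adjusted p = 0.0472). The log2 levels of Tcf12 were 8.60 and 8.58 in the knockout control and 7.97 and 6.94 at 3 h. On the second knockout 3 h array, which had the fewest detected probes, Tcf12 was not detected. Tcf3 and Smarca4 of this list were not detected there either, so the list median draws on values below detection. In the wild type at 3 h Nr4a2 differed by -2.26 ± 0.34 (limma adjusted p = 0.0513), and it passed with the slide as a block (adjusted p = 0.0439). No gene of this list rose past the threshold in the knockout at 3 h. The other bright genes of the list, detected on all 12 arrays, differed by 0.36 ± 0.15 for Stat3, 0.14 ± 0.28 for Etv1 and -0.53 ± 0.27 for Hdac2, none called.

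The melanotrope list had 3 of 6 genes tested, and its defining gene Pax7 was not detected. Drd2, the dopamine receptor that restrains melanotropes and is also present in lactotropes, was higher in the knockout pools by 0.51 ± 0.20 (limma adjusted p = 0.409). Oacyl, of the acyltransferase family, had a difference of 1.23 ± 0.21 (limma adjusted p = 0.125), and Esm1, also an endothelial gene, 0.46 ± 0.19 (limma adjusted p = 0.410). None was called. Oxt, the marker of the posterior lobe that was detected, had linear levels of 445 to 446 in the knockout control and 225 to 314 in the wild-type control. At 1 h they were 448 to 467 in the knockout and 319 to 373 in the wild type, and at 3 h the genotypes overlapped, at 291 to 401 and 316 to 336. No difference of Oxt was called, while Avp and Gfap were detected on 1 array each and Rax on none. The share of intermediate and posterior lobe in each pool was not measured, and its part in the values of the second Pomc probe was not tested.

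Of the 8 receptors listed for these cells 5 were tested, and none was called in any comparison. Avpr1b, the vasopressin receptor of corticotropes, was detected on 5 arrays, all of them wild type. Of 7 melanocortin receptors and accessory proteins, Mc3r alone was tested, with raw intensities between 137 and 412, and it was not called.

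Across the 12 arrays the probes most like Tbx19 in normalized level, among 4598 detected on every array, were Ghrhr (through probe 3130500, not the probe 4010154 used above, Pearson r = 0.94, Spearman rho = 0.87), Ddx50 (r = 0.92, rho = 0.94) and Csnk1g3 (r = 0.90, rho = 0.92). Without the 2 arrays farthest from the median of Tbx19, r was 0.85, 0.86 and 0.82. Closest to Neurod1 were Bmpr1a, Rnf114 and Mief1 (r = 0.94, 0.91 and 0.90, or 0.80, 0.80 and 0.77 without the 2 farthest arrays). Closest to Pitx1 were Hp1bp3, Sh3bp5l and Clcn3 (r = 0.89, 0.87 and 0.83, or 0.89, 0.74 and 0.73 without them). These 12 arrays share 6 pools and 2 slides, so the correlations are descriptions and carry no p-value.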

How the data were processed

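The deposited array files hold the mean bead intensity of each probe, which the authors left uncorrected and not normalized, per the file headers. A detection p-value per probe, taken against negative control beads, was deposited with them and made by the authors with BeadStudio, per the submitters' processing notes, without a version. A separate deposited table holds the authors' processed intensity values for 46133 probes, background-subtracted and scaled by an unstated method. It served as an alternative, and the 14 probes it lacks were not tested. Gene symbols came from the array's probe-gene table, where 29542 probes had 1 symbol, 11 several and 16594 none. The table's annotation can be old.

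Raw intensities were corrected with normexp in limma (version 3.58.1, R version 4.3.3). The offset was 16 and the background was inferred from detection p-values. They were then quantile normalized and put on the log2 scale. Probes detected at p under 0.01 on at least 2 of 12 arrays were kept, 14405 in all, and each probe was tested on its own. lmFit and eBayes were fitted to 12 arrays with 1 term per group for 9 comparisons, with Benjamini-Hochberg adjustment over all tested probes of a comparison. In a further fit the 2 arrays of each pool were averaged and 6 pools fitted with genotype and treatment. Sums of a list's levels are of linear normalized values. The fit was tested on simulated data. The number of arrays limits the precision.

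Alternatives were other background, normalization, filter, weight and sample choices, the authors' table, and leaving out each array. Named genes are all 7 probes, list genes past the threshold or among the 4 brightest of their list, and the 3 probes most like each detected one. Genes named as not detected were chosen after their values were seen. The 6 genes and the lists were chosen with earlier results of these data known. Promoter sequences are from RefSeq, GRCm38.p6. No coordinates of probes are given, since the array's assembly is not known. Mc2r sequence is not reported here.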

Additional observations from a re-analysis of the deposited data

How the results depend on the processing

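The call of Tbx19 at 3 h in the knockout held in 7 of 23 alternative settings. The number of called probes among the 5 in that comparison went from 1 to 0 with median centring, with the authors' table floored at its lowest positive value, without the filter on dim probes, with array quality weights and with only the arrays of the groups compared, and lay between 0 and 2 when an array was left out. Its difference ranged from 0.67 to 1.28 with adjusted p-values from 0.00599 to 0.294. Without the first knockout 3 h array, Neurod1 was called as well, and so was 1 probe in knockout against wild type at 3 h and 1 in the genotype difference of the 3 h response (range 0 to 1 for both). With the authors' table floored at its lowest positive value the second Pomc probe alone added 1 call each to both wild-type comparisons, to knockout against wild type in controls and to both genotype differences, since its value there was at the floor; with a floor of 16, chosen after seeing the data, these calls were absent.

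The genotype difference over pools moved for the second Pomc probe, whose wild-type values are below detection, from 0.75 to 0.35 without background correction, to 7.17 with the floored authors' table, to 1.13 on slide 1 alone and to 0.36 on slide 2 alone. For Tbx19 it went from -0.17 to -0.46 with median centring, for Neurod1 from 0.57 to 0.36 with median centring and 0.26 without background correction, and for Pitx1 from -0.12 to -0.50 with the floored authors' table, 0.29 on slide 1 alone and -0.54 on slide 2 alone. Without the 3 h pools, added after seeing the data, the differences were 0.90, -0.38, 0.42 and -0.20 for these probes, none called. With the replicate number as a block, Tbx19 at 3 h in the knockout had an adjusted p of 0.0372, no call of the 5 probes changed, Nr4a2 in the wild type at 3 h, Lhb in the knockout at 3 h and Lcn2 in knockout against wild type at 1 h became called (adjusted p = 0.0439, 0.0310 and 0.0376), and calls over all probes there went from 1250 to 1821. Deviations of same-numbered arrays from their group means correlated between -0.15 and 0.46 over 15 pairs. These values cannot show whether the number marks anything shared beyond the slide, and the main fit assumed no pairing. Among 986 uncalled values 33 changed sign. Where a cause is not named it was not tested.

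Counts over all probes depended on the setting. Knockout at 3 h ranged from 0 with only the arrays compared to 1821, and from 24 to 3902 when an array was left out. The controls' comparison, 241 in the report's setting, ranged from 17 to 906 and from 6 to 744, that at 1 h, 117, from 0 to 540 and from 2 to 468, and that at 3 h, 199, from 0 to 331 and from 17 to 3201. The counts for wild type at 1 h and 3 h and knockout at 1 h, 9, 24 and 29, ranged from 0 to 29, 1 to 76 and 8 to 118 over all settings. The 2 genotype differences, 8 and 20, ranged from 3 to 39 and from 8 to 2103.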

Other observations

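At 3 h in the knockout, 3 of 8 tested genes of other anterior lobe lineages and 1 of 2 of endothelium and immune cells were called, where 8.68% of all probes were. Besides Ghrhr they were the following. Tshb, the beta subunit of thyrotropin, fell by 1.14 ± 0.19 (limma adjusted p = 0.0133), while Gata2, a factor of thyrotropes and gonadotropes, rose by 1.01 ± 0.19 (limma adjusted p = 0.0191) and Plvap, a gene of fenestrated endothelium, rose by 1.25 ± 0.20 (limma adjusted p = 0.0119). Not called were Lhb (0.69 ± 0.28), Fshb (-0.54 ± 0.64), Cga (-0.10 ± 0.18) and Pecam1 (-0.06 ± 0.45). Gh and Prl had a normalized difference of 0, but at the top of the array these values carry rank only. Gh read above 60000 on 12 arrays and Prl on 6, so no absence of change is read from this. Gata2 and Plvap were lowest in the knockout control and Tshb was highest there on both slides.

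Lcn2, which encodes a secreted iron-binding protein, rose at 3 h in both genotypes, by 1.20 ± 0.16 in the wild type (limma adjusted p = 0.0422) and by 0.85 ± 0.16 in the knockout (limma adjusted p = 0.0198). In the wild type its log2 levels were 10.28 and 10.31 in the control and 11.39 and 11.62 at 3 h. In the knockout they were 10.25 and 10.38 in the control and 11.04 and 11.29 at 3 h. The arrays of both comparisons did not overlap, which held for 47.0% of all probes in the wild type and 51.8% in the knockout. The same comparisons called 0.167% and 8.68% of all probes.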
